A study of Homo sapiens with 12 samples.

Results

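Chromatin immunoprecipitation with a Notch3 antibody, followed by sequencing (ChIP-seq), marked 200 regions of the genome that recurred in N3ICD libraries and in no GFP library. N3ICD is the intracellular domain of the NOTCH3 receptor, and the cells came from H9, an established line of human embryonic stem cells. Neural crest cells from 3 independent differentiations had received a lentivirus for GFP alone or for N3ICD with GFP, 6 days before analysis. The labels call the GFP cells neural crest and the N3ICD cells mural, the class that holds pericytes and vascular smooth muscle. Each group had 3 ChIP libraries, A, B and C, with the same antibody, and 3 input libraries that were not analysed here. All cells carried a GFP virus, and the N3ICD in these cells was delivered by virus, so its level need not match that of a natural receptor. The promoter of the virus is not given in the sources used here. Peaks do not measure expression, so the labelled cell types could not be checked against marker genes.

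The regions were chosen by the peaks themselves. All peaks of the 6 libraries were pooled, and those sharing at least 1 bp were joined, giving 12268 regions, and a region was kept when at least 2 N3ICD libraries and no GFP library had a peak in it. The 200 regions, called N3ICD-only below, are 1.63% of all merged regions. With N3ICD A, B or C left out, so that both others were needed, 129, 65 and 52 regions met the rule, and 40 did among peaks with a −log10 q of at least 1.3. The mirror rule found 28 GFP-only regions, and 7636 regions had a peak in 1 N3ICD library alone. Because the rule used peak calls, the folds, p and q values of these peaks describe the regions and carry no test. A region without a GFP peak is not a region without GFP signal, since the deposited lists hold peaks only.

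Notch receptors are cut after a ligand on a neighbouring cell binds them. The freed intracellular domain has no DNA-binding domain of its own and reaches DNA through the protein RBPJ, which reads a short sequence with the core TGGGAA, and it recruits Mastermind coactivators. NOTCH3 is the main Notch receptor of vessel mural cells, and the HES and HEY repressors are the best known direct targets of the pathway.

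The sequences shown here are the promoters on which the account of RBPJ sites turns. They come from RefSeq, build GRCh38.p14, are read 5′ to 3′ along the gene, and hold the 250 bases before the start. Capitals mark TGGGAA or its complement TTCCCA. HES4 and HEY2, which encode Notch target repressors, each had a match within the bases shown. MAML3, which encodes a Mastermind coactivator, had none and is shown for contrast. The 3 stretches are chr1:1000098-1000347 on the minus strand, chr6:125749382-125749631 on the plus strand and chr4:140154185-140154434 on the minus strand.

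HES4 promoter: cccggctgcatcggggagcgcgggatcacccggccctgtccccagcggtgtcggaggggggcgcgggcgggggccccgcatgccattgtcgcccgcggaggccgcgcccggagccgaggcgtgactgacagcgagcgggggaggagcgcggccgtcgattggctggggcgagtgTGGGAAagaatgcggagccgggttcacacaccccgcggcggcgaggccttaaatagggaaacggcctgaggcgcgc
HEY2 promoter: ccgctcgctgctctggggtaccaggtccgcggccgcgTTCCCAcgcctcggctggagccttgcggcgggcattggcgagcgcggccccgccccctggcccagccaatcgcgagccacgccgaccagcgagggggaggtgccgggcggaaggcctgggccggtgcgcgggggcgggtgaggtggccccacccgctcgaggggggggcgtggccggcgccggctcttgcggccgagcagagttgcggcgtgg
MAML3 promoter: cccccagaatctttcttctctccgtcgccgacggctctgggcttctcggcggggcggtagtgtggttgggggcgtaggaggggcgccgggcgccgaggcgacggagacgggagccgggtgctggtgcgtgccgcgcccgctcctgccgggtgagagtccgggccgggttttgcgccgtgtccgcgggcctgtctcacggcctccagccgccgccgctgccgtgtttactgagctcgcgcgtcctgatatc

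A longer RBPJ form, CGTGGGAA or TGTGGGAA, was found in the promoters of 9 genes at 8 N3ICD-only regions. The runs of 30 bases below show these sites, turned so that the motif reads forward, with the 8 letters in capitals. HERC3 and PYURF share 1 site because their starts face each other. SH3KBP1 had 7 copies in a stretch rich in A and G, of which the copy nearest to a summit is shown. The 2 HEY2 sites lay 209 bp before the start and at the start itself, 1 bp from it.

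HES4, chr1:1000157-1000186, minus strand: gctggggcgagTGTGGGAAagaatgcggag
HEY2 upstream, chr6:125749408-125749437, minus strand: tccagccgaggCGTGGGAAcgcggccgcgg
HEY2 at the start, chr6:125749616-125749645, plus strand: cagagttgcggCGTGGGAAagagccgctag
KMT2D, chr12:49060901-49060930, plus strand: cagggcagacaCGTGGGAAcgaagcccccc
RNF180, chr5:64165605-64165634, minus strand: ccagacggaacCGTGGGAAagtttttctcc
SH3KBP1, chrX:19833207-19833236, minus strand: gcaagaaggacTGTGGGAAagagggaggag
HERC3 and PYURF, chr4:88523863-88523892, minus strand: gacgccCGTGGGAAaagcagtcggagcaga
MAIP1, chr2:199955279-199955308, minus strand: gagacccagggTGTGGGAAagaggcgcagg
GNG5, chr1:84506546-84506575, plus strand: tcctcccagttTGTGGGAAgggttgaggga

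In 6 of these 8 regions at least 1 peak summit, the base at which the authors' peak caller placed the maximum, lay within 100 bp of a site. At HES4 both summits were close, 31 bp away in A and 17 bp in C, and at RNF180 they were 98 bp away in A and 48 bp in C. At the start site of HEY2 the distances were 133 bp in A, 9 bp in B and 98 bp in C. In the other regions the libraries disagreed or lay farther off. The summit at HERC3 and PYURF was 4 bp away in C but 666 bp away in B, that at KMT2D 60 bp in B and 152 bp in C, and that at the SH3KBP1 copy shown 17 bp in A, 249 bp in B and 214 bp in C. At MAIP1 the summits lay 335 bp away in B and 334 bp in C, and at GNG5 450 and 646 bp.

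Most of the regions were weak, and N3ICD C had the highest median fold but the lowest median pileup. The fold, as deposited by the authors, divides the pileup at the summit by the local background, with 1 added to each. Peaks in N3ICD-only regions numbered 94 in N3ICD A, 158 in B and 172 in C, of 2226, 2490 and 3397 peaks. Their median fold was 3.97 in A, 3.87 in B and 4.33 in C, against 3.53, 3.53 and 3.64 for the other peaks of the same libraries. The median pileup at their summits was 9, 10 and 8 stacked fragments. The genome-wide background was 1.27 in A, 1.58 in B and 0.926 in C, and lay between 0.926 and 1.90 in the 6 libraries. The same pileup therefore gives a higher fold in C over this background, so a higher fold in C need not mean more signal. A −log10 q of at least 1.3, which is a q of about 0.05, was reached in no library at 85 regions, in 1 library at 75, in 2 at 32 and in all 3 at 8. The depth of each library is unknown beyond this background, because no read totals are among the files.

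The 2 libraries that a region was found in were most often B and C. That pair gave 106 regions without A. The pair A with C gave 42 without B, the pair A with B gave 28 without C, and 24 regions had peaks in all 3. No library had more than 1 peak in any region.

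Where the rule drew its line, overlaps were small. Peaks at SPAG6, an axoneme gene, joined by 9 bp between N3ICD A and C, and those at SIAH2, a ubiquitin ligase gene, by 17 bp. Just outside it, N3ICD peaks near CNTNAP3B missed by a gap of 5 bp, and those near MED29, a Mediator subunit gene, by 16 bp. In all, 86 pairs of N3ICD peaks lay up to 1000 bp apart without forming such a region, 10 of them up to 100 bp apart. Another 5 regions had at least 2 N3ICD peaks but also a GFP peak. Of these, the region at HNRNPA2B1, a splicing factor gene, had folds of 3.44 in N3ICD B, 5.25 in N3ICD C and 3.38 in GFP C.

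Whether recurrence carried over to a library that took no part in the choice was tested by leaving out 1 letter at a time. Regions were chosen with a peak in the other 2 N3ICD libraries and in neither of the other 2 GFP libraries, and the left-out pair was then read. Of 130 regions chosen without letter A, 24 had a peak in N3ICD A, or 18.5% (95% Wilson interval 12.7% to 26%), and 1 had a peak in GFP A, or 0.769% (0.136% to 4.23%). Of 65 chosen without B, 23 had a peak in N3ICD B, or 35.4% (24.9% to 47.5%), and none in GFP B (upper bound 5.58%). Of 52 chosen without C, 24 had a peak in N3ICD C, or 46.2% (33.3% to 59.5%), and none in GFP C (upper bound 6.88%).

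All 3 left-out N3ICD libraries lay above all 3 left-out GFP libraries. The choice itself asked for N3ICD peaks and against GFP peaks, so it favours a low share in the left-out GFP library. The N3ICD mean was 33.3% ± 14.0 and the GFP mean 0.256% ± 0.444 (SD, n = 3 each), a difference of 33.1 percentage points. The two-sided exact permutation p was 0.1, the smallest that 3 libraries against 3 allow, so this design cannot reach 0.05. With the letter as a block, the exact p was 0.25, the smallest that 3 pairs allow. Each N3ICD library also helped to choose the regions for the other letters, and a region with peaks in all 3 could be counted under each letter. The 3 shares are therefore not independent, and their common direction is no replication. Regions with a peak in only 1 of the 2 N3ICD libraries used had a peak in the left-out N3ICD library in 1.29%, 2.52% and 3.25% of cases when A, B or C was left out (two-sided exact sign-flip permutation p = 0.25 against regions found in both, n = 3). In the left-out GFP library the shares for regions with a peak in only 1 N3ICD library were 0.0715%, 0.0731% and 0.392%. Regions chosen in the same way on GFP were few, 13, 16 and 4. A peak in the left-out library was found in 13.0% ± 10.4 of these for GFP and in 6.73% ± 6.31 for N3ICD (SD, n = 3 each; two-sided exact permutation p = 0.6). GFP A, B and C had 1219, 1533 and 1718 peaks, fewer than any N3ICD library. With the 1219 most significant peaks of each library, the difference for regions chosen on N3ICD was 26.9 percentage points (two-sided exact permutation p = 0.1). The part of peak number in the shares of regions chosen on GFP was not tested.

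**Figure D1:**
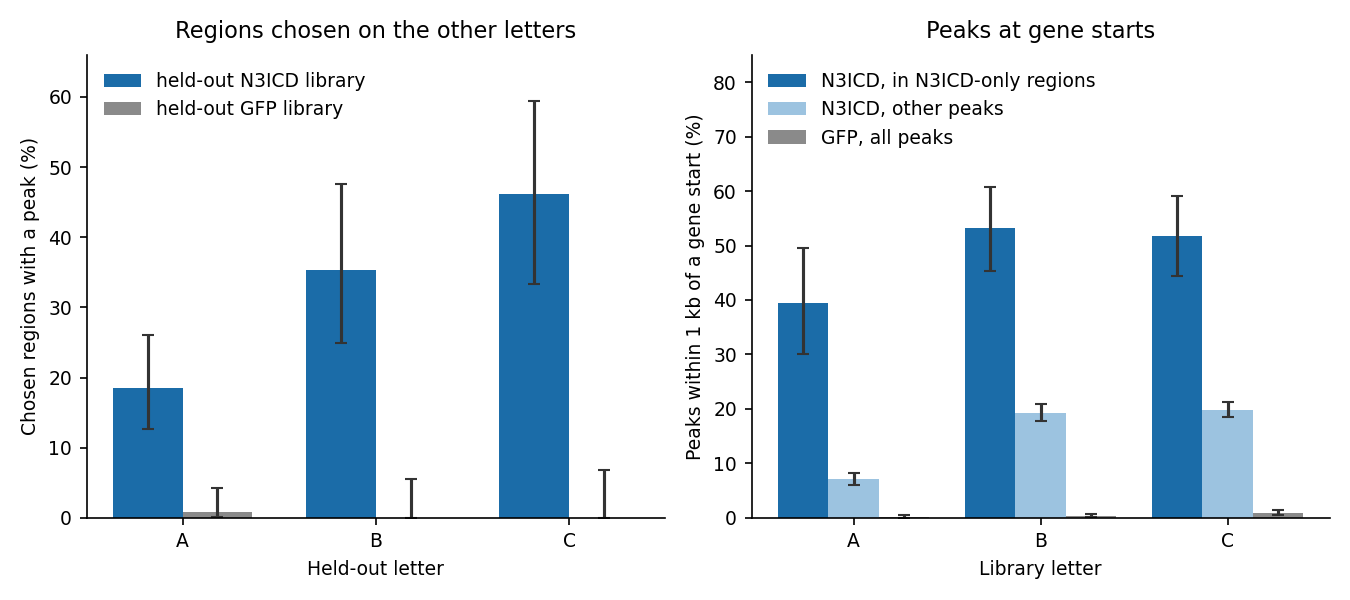
Left, the percentage of regions chosen on the other 2 letters that had a peak in the left-out N3ICD (blue) or GFP (grey) library, with 95% Wilson intervals; right, the percentage of peaks with a summit within 1 kb of a gene start, for N3ICD peaks in N3ICD-only regions (dark blue), the other N3ICD peaks (light blue) and GFP peaks (grey), by library. Each of the left-out N3ICD libraries, at 18.5% to 46.2%, is above each GFP library, at no more than 0.769%.

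In each N3ICD library a larger share of the peaks in N3ICD-only regions lay at gene starts than of its other peaks. Starts were known here for 15842 of the 20037 protein-coding genes, and for none on chromosome 8. Of the 200 regions, 101 had their median summit within 1 kb of a start, 46 lay inside a gene, 41 lay between genes, and 12 were on chromosome 8. In N3ICD A, 39.4% (95% Wilson interval 30.1% to 49.5%) of the peaks in these regions were within 1 kb of a start, against 7.08% of its other peaks. The shares were 53.2% against 19.3% in N3ICD B and 51.7% against 19.8% in N3ICD C. The mean difference was 32.7 percentage points, positive in 3 of 3 libraries (two-sided exact sign-flip permutation p = 0.25, the smallest possible). By the rule each region is counted in at least 2 libraries, so the 3 differences are not independent and their common sign is no replication. It was 12.3 points among peaks with a −log10 q of at least 1.3, 19.2 with equal numbers of peaks, and 18.9 when a start had to lie within 250 bp. In the GFP libraries 0.164%, 0.326% and 0.873% of peaks were as close to a start.

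The regions sat on both sides of the start. The median position was 36.5 bp upstream, with 52 regions upstream and 49 downstream, and 59 of the 101 were within 250 bp. At 22 of them at least 2 starts lay within 1 kb, as at DDX5 and CEP95, RPS6KB1 and TUBD1, and MRPL40 and HIRA. Regions found in B and C alone were at a start in 65 of 106, or 61.3% (95% Wilson interval 51.8% to 70.0%). The share was 16 of 42 for A and C alone, 11 of 28 for A and B alone, and 9 of 24 for all 3 libraries. N3ICD A also had the lowest share of peaks at starts outside these regions, and the part of this in the difference between patterns was not tested.

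**Figure D2:**
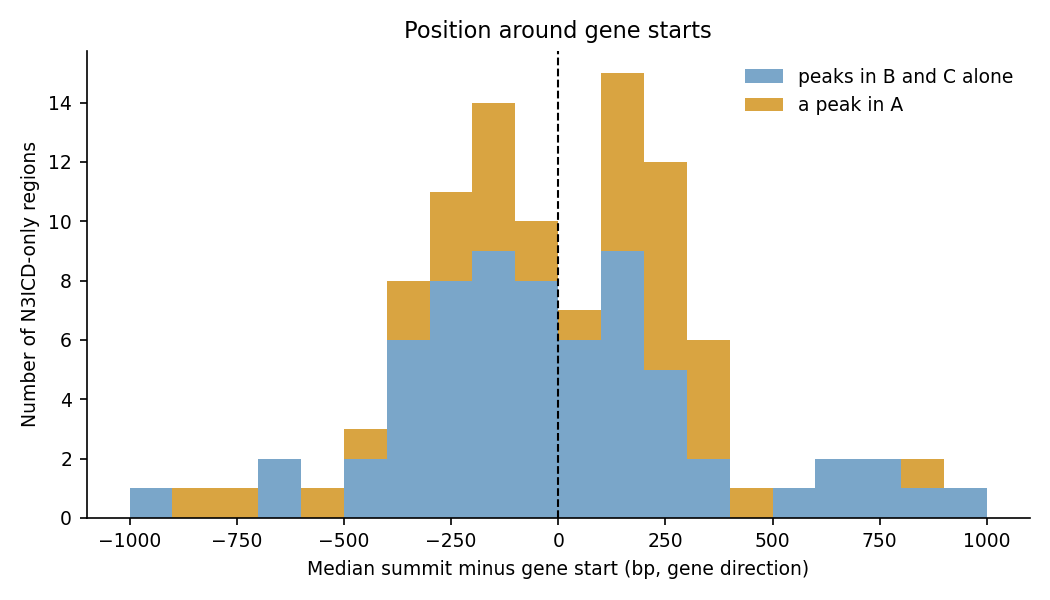
Number of N3ICD-only regions by the position of their median summit around the nearest gene start, in bp along the gene in steps of 100 bp, for regions with peaks in B and C alone (blue) and regions with a peak in A (yellow), stacked. The 101 regions lie on both sides of the start, 52 upstream and 49 downstream.

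High folds were found at known starts and in the other regions. Among 36 regions with a fold of at least 6 in some library, 11 were at a known start and 25 were not. The 25 include regions on chromosome 8, such as those of HEY1, and may include starts missing from the known set. In N3ICD A, 1 of 36 peaks at known starts and 11 of 58 in all other regions had a fold of at least 6. In N3ICD C these were 8 of 90 and 22 of 82. N3ICD B had 2 of 85 and 3 of 73. Regions away from known starts with high folds included those inside LMLN and CCDC97 and the one near MIDN, which encodes a proteasome adaptor.

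Within 100 kb, 191 regions had a protein-coding gene, and these were 188 different genes, or 0.938% of the 20037. Every one was sorted by hand into 1 of 14 functional classes after the genes were known, so the classes describe them and carry no test. The size of each class over all protein-coding genes was not counted, so a large class here is no sign of an excess. Transcription factors were the largest class with 23 genes, followed by kinase, phosphatase and GTPase signalling with 22, RNA processing and translation with 20, metabolism with 19 and vesicle traffic and glycosylation with 14. Chromatin and polymerase II machinery held 12 genes, ubiquitin ligases and protein folding 11, adhesion and extracellular matrix 10, cytoskeleton and cilia 9 and the Notch pathway 9. Mitochondria held 7, transporters and channels 6, and cell cycle, DNA repair and apoptosis 5. The remaining 21 had no class or no known role.

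**Figure D3:**
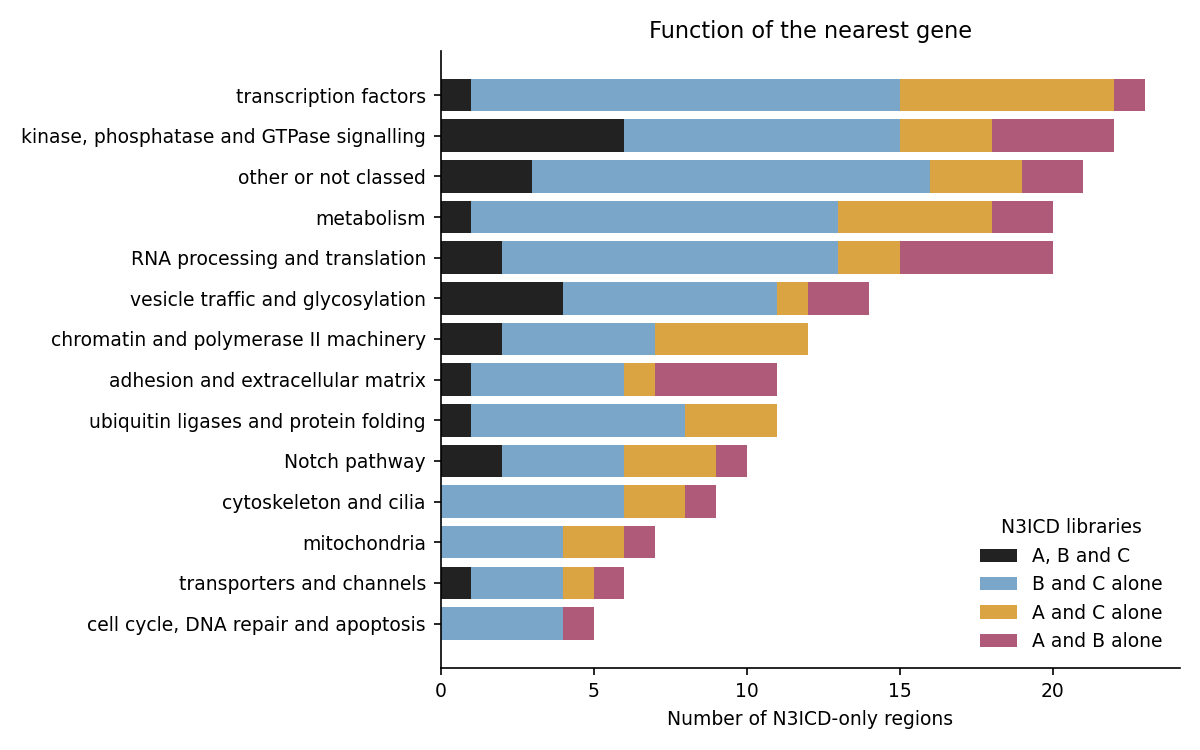
Number of N3ICD-only regions by the functional class of the nearest gene, stacked by the N3ICD libraries with a peak: all 3 (black), B and C alone (blue), A and C alone (yellow) and A and B alone (purple). Regions at transcription factor genes number 23, of which 14 had peaks in B and C alone.

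The Notch pathway class had the highest folds for its libraries. Its 10 regions had a median fold percentile of 90.8 among the peaks of their libraries, against 64.5 over all 200 regions. Peaks came from B with C at 4 of the 10, from A with C at 3, from A with B at 1 and from all 3 libraries at 2.

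Among receptors, the region inside NOTCH3 (chr19:15195578-15195951) had folds of 4.88 in A, 5.88 in B and 6.58 in C, and every one of these peaks passed a −log10 q of 1.3. NOTCH1, another receptor gene, had its region 42062 bp from its start, with folds of 5.16 in A and 4.62 in B. NOTCH2NLB, a human-specific partial copy of NOTCH2, had folds of 5.42 in B and 3.19 in C. Reads from near-identical copies cannot be placed with certainty, so NOTCH2NLB, SRGAP2B, NBPF14 and SLX1A are uncertain assignments.

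Among coactivators, MAML3 had peaks of fold 3.70 in B and 5.71 in C, with summits 96 and 152 bp before its start, inside the promoter printed above. The fold was higher in N3ICD C, but the pileup at the summit was 11 in B and 10 in C. N3ICD A had no peak there.

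Among target repressors, HES4 had folds of 5.30 in A and 4.61 in C, with summits 43 and 91 bp before its start. Its RBPJ site, 74 bp before the start, lay between these 2 summits. HEY2 had folds of 3.09 in A, 2.75 in B and 6.87 in C, with summits 134 bp before the start, 8 bp after it and 99 bp before it. Only C was strong at HEY2, where the −log10 q was 0.104 in A, 0.244 in B and 5.35 in C. HEYL, a repressor gene of vessel wall cells, had its region 6507 bp from its start inside the gene, with folds of 7.70 in A and 6.05 in C. BHLHE40, a repressor gene of the circadian and hypoxia responses, had folds of 3.46 in A and 5.15 in C, 7583 bp from its start.

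**Figure D4:**
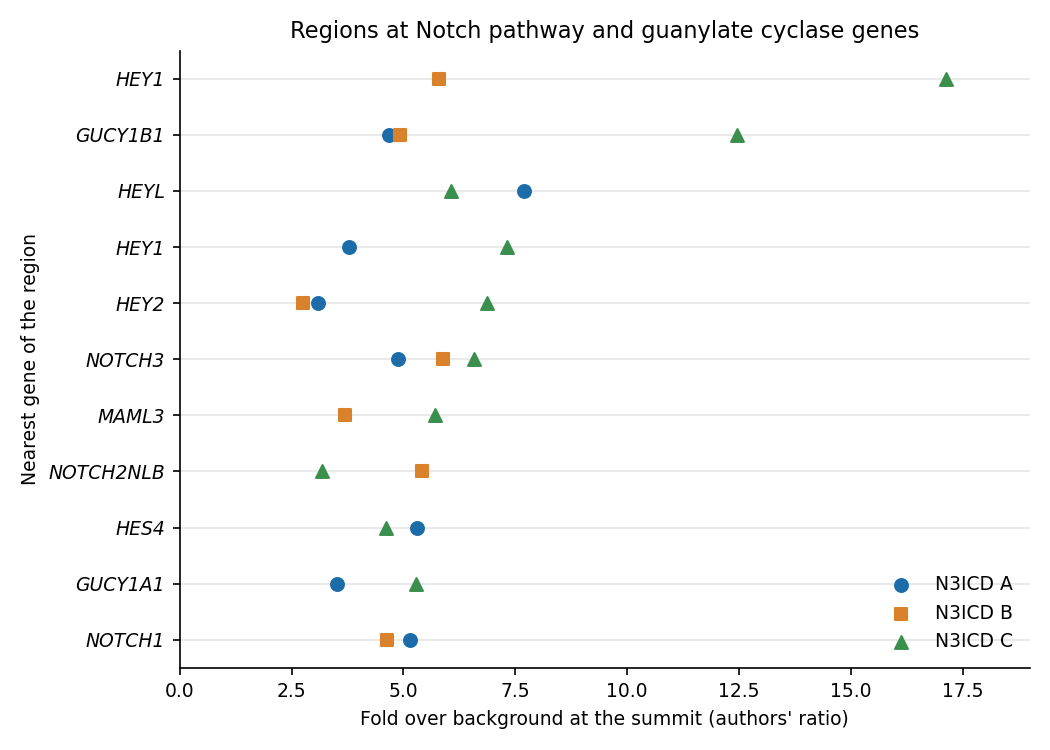
Fold over background at the summit, the authors' ratio, for each N3ICD library with a peak in 9 regions at Notch pathway genes and the 2 at guanylate cyclase genes, 1 line a region. The 2 highest values, 17.1 at the HEY1 region 59852 bp from that gene's end and 12.5 at GUCY1B1, are both from N3ICD C.

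Regions also lay beside both subunits of soluble guanylate cyclase, the nitric oxide receptor that relaxes vascular smooth muscle. GUCY1B1, the beta subunit gene, had folds of 4.68 in A, 4.93 in B and 12.5 in C. GUCY1A1, the alpha subunit gene (chr4:155667441-155668095), had folds of 3.53 in A and 5.29 in C and no peak in B. The GUCY1A1 summits lay 834 bp after the start in A and 819 bp after it in C. Of 14 nitric oxide and cGMP genes, these were the 2 with a region, and over all protein-coding genes the share was 0.938%. Any assigned peak was found at 2, 4 and 6 of the 14 genes in N3ICD A, B and C. In GFP A, B and C it was found at 2, 0 and 0, so the groups overlapped.

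Gene lists give the same by known function. Of 25 Notch target genes, 9 had an N3ICD-only region: BHLHE40, GUCY1A1, GUCY1B1, HES4, HEY1, HEY2, HEYL, NOTCH1 and NOTCH3. Several genes of this list were put on it with earlier results of these data known, so its count is no independent support. The count was 4 without N3ICD A and 4 without N3ICD C. Of the Notch pathway components, MAML3, NOTCH1 and NOTCH3 had a region, and of 33 mural markers 3 had one (HEYL, MCAM and NOTCH3). Of 20 smooth muscle contractile genes only TPM2, a tropomyosin gene, had one, of 32 extracellular matrix genes only HSPG2, and of 30 neural crest genes only ID2. None of 20 Schwann cell and neuron genes, 15 endothelial genes or 15 pluripotency genes did. Of 24 housekeeping genes 3 had a region, EEF1A1, EIF4A2 and PPIA. Over all protein-coding genes the share was 0.938%, and the housekeeping list stands as a list with no tie to Notch.

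Any peak assigned to a list gene was also counted per library. For Notch target genes, N3ICD A reached 11 genes, N3ICD B 11 and N3ICD C 14, whereas every GFP library had 0. Over all protein-coding genes the shares with an assigned peak were 6.08%, 9.11% and 11.5% with N3ICD and 2.42%, 3.37% and 3.26% with GFP, so the groups do not overlap there either. Mural markers gave 9, 9 and 9 against 1, 1 and 1, and housekeeping genes 2, 7 and 7 against 0, 1 and 0, again without overlap. For neural crest genes the counts were 3, 12 and 9 with N3ICD and 0, 5 and 1 with GFP, in letter order, so the groups overlapped. Schwann cell and neuron genes numbered 2 in each N3ICD library and 0, 1 and 1 in GFP.

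Transcription factor genes were the largest class, and 14 of their 23 regions were at a start. Immediate early genes, which many signals switch on quickly, were among them, a grouping made after the genes were seen. FOS, an AP-1 subunit gene, had folds of 5.03 in B and 5.64 in C, with summits 266 and 264 bp before its start. EGR1, a zinc finger factor gene, had 3.97 in A and 4.30 in C, with summits 687 and 760 bp before its start. NR4A3, an orphan nuclear receptor gene, had 3.97 in A and 5.71 in C, 2178 bp from its start. These 3 genes were each found in 2 libraries, and the −log10 q at EGR1 was 0.517 in A and 1.14 in C.

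A few genes of basic helix-loop-helix factors and their partners, the protein class of HES and HEY, were picked out after the genes were seen, with no fixed list behind them. TCF3, an E protein gene, had folds of 5.45 in B and 4.67 in C at its start. ID2, whose product blocks E proteins, had 3.87 in B and 3.64 in C, with summits 65 and 62 bp after its start. CLOCK, a circadian activator gene, had 3.48 in B and 3.25 in C, and MNT, a MAX-binding repressor gene, had 3.48 in B and 4.15 in C. All 4 were found in B and C alone, the pattern of 106 of the 200 regions. In the same protein class, BHLHE40, HES4, HEYL and HEY2 had peaks in A. HEY1 had a region in A and C and another in B and C alone. Among TCF3, ID2, CLOCK and MNT, only TCF3 passed a −log10 q of 1.3 in both B and C.

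The top of the class by fold percentile was ZNF335, a zinc finger factor gene of neural progenitors, with folds of 4.93 in B and 6.75 in C. ATXN1, a repressor gene, had 4.65 and 4.67 in the same libraries. The forkhead genes FOXK1 and FOXK2 both had regions, at 3.85 in A and 4 in B, and at 3.53, 5.02 and 5.19 in A, B and C. Within this class, which leaves HES and HEY genes to the Notch class, FOXK2 alone had a peak in all 3 libraries. ZKSCAN2, a zinc finger gene, had 3.85 in A and 6.21 in C.

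Signalling genes had 6 regions in all 3 libraries, the most of any class. They were at GUCY1B1, FNIP1, DENND2B, SRGAP2B, RPS6KB1 and RPS6KA1. FNIP1, which encodes a folliculin partner in AMPK and mTOR signalling, had folds of 3.97 in A, 5.42 in B and 3.82 in C. RPS6KB1, the S6 kinase gene of the mTOR pathway, had 3.49, 4.47 and 3.64. RPS6KA1, the gene for the kinase RSK1, had 4.85, 2.74 and 4.07. None of these 3 had a −log10 q of at least 1.3 in more than 1 library.

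Of the rest of the signalling class, STK35, a kinase gene, had folds of 6.19 in B and 5.19 in C at its start. EFNA1, an ephrin ligand gene, had 5.03 in B and 5.19 in C, with summits 120 and 350 bp before its start. MAPK1IP1L, whose product binds a MAP kinase, had 4.85 in A and 5.79 in B. RAP2C, a Ras-like GTPase gene, had 4.34 in A and 5.81 in B. CALM3, a calmodulin gene, had 5.73 in A and 4.67 in C. Tyrosine phosphatase genes were represented by PTPN1, at 4.19 in B and 4.07 in C, and PTPN12, at 3.97 in A and 3.64 in C.

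Chromatin genes were at starts in 8 of 12 regions, and several belong to the same complexes. KMT2C and KMT2D encode histone H3 lysine 4 methyltransferases, and PAGR1 a subunit that both complexes share. KMT2D had folds of 3.48 in B and 4.56 in C at its start, and PAGR1 had 3.39 and 3.12. The KMT2C region lay 28645 bp from a start, at 3.53 in A, 3.01 in B and 3.55 in C. TAF6L, a SAGA subunit gene, had the highest fold of the class, 6.74 in A, with 5.48 in C. ARID1A, a BAF remodelling subunit gene, had 3.53 in A and 3.77 in C, and JARID2, a PRC2 subunit gene, 3.45 in B and 4.48 in C. This grouping by complex was made after the genes were seen.

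RNA and translation genes had 20 regions with a median fold percentile of 68.2. The strongest was inside EXD3, at 6.19 in A, 5.48 in B and 8.45 in C, and it lies beside NRARP, a Notch feedback gene. NOCT, the gene for nocturnin, had 4.41 in A and 4.65 in B. The helicase genes DDX1 and DDX5 had 3.93 in A and 4.87 in B, and 3.87 in B and 4.67 in C. HNRNPD, an mRNA decay factor gene, had 4.41, 2.75 and 4.78 in A, B and C. Of 74 translation factor genes 2 had a region, EEF1A1 and EIF4A2, or 2.70% against 0.938% of all protein-coding genes. Both are also on the housekeeping list, and EEF1A1 was weak, with folds of 2.93 in B and 2.58 in C.

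Metabolic genes had 20 regions, 11 of them at a start. The strongest of all classes in A and B was inside SULT4A1, a brain sulfotransferase gene, at 15.4 in A, 11.3 in B and 18 in C. CYP51A1 and LSS encode consecutive enzymes of sterol synthesis, and both had peaks in A and C, at 3.53 and 4.15 and at 3.09 and 4.67. ENO1, a glycolysis gene, had 3.39 in B and 4.15 in C. NXN, the nucleoredoxin gene, had 4.26 in A and 6.51 in C. Mitochondrial genes included NDUFS8, a complex I subunit gene, at 3.53 in A and 4.14 in C, and MRPL16, at 3.39 in B and 4.15 in C.

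Vesicle and glycosylation genes had 9 of 14 regions at a start. SH3KBP1, which encodes an endocytic adaptor, was found in all 3 libraries at 5.28, 5.30 and 6.73, with a −log10 q of 2.66, 3 and 6.99. GALNT11, whose glycan transferase acts on Notch receptors, had 4.26 in B and 6.23 in C, but 52377 bp from a start. The N-glycan transferase genes MGAT1 and MGAT4B both had regions in B and C. VTI1A, a SNARE gene, had 5.29, 4.26 and 3.64 in A, B and C.

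Ubiquitin and folding genes had the second highest median fold percentile, 84.3. ARMC8, a subunit gene of the CTLH ubiquitin ligase, had 5.42 in B and 7.27 in C at its start. RNF180, a ubiquitin ligase gene, had 3.98 in A and 5.84 in C. DCAF1, a cullin 4 receptor gene, had 6.19 in B and 3.89 in C. PPIA, the cyclophilin A gene, had 5.03 in B and 4.58 in C.

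Adhesion and matrix genes included MCAM, which encodes the pericyte and endothelial adhesion molecule CD146, at 6.48, 5.81 and 8.12 in A, B and C. All 3 of its peaks passed a −log10 q of 1.3. HSPG2, the gene of the basement membrane proteoglycan perlecan, had 3.99 in B and 4.15 in C, and neither passed. FAT1, a giant cadherin gene, had 3.39 in B and 4.30 in C. None of the 86 collagen, laminin and integrin genes had a region. Over all protein-coding genes the share was 0.938%, so an absence among 86 genes does not set this family apart.

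The smaller classes held genes of known cell biology. BBC3 and PMAIP1 encode the pro-apoptotic proteins PUMA and NOXA, and both had regions in B and C, at 4.65 and 6.75 and at 3.48 and 6.23. TTC21B, an intraflagellar transport gene, had 4.65 in B and 4.15 in C. TPM2 had 3.08 in B and 6.55 in C, 1153 bp from its start. HCN4, a pacemaker channel gene, had 4.36, 3.64 and 3.64 in A, B and C, with no −log10 q of 1.3.

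In 9 regions no protein-coding gene end lay within 100 kb. The strongest of these, nearest to ADGRD1, had folds of 10.1 in A and 14.2 in C. Those nearest to PXDNL and CNTN6 had 5.29 and 6.52, and 4.41 and 7.76, in A and C. In the other 6 the highest fold was 4.38.

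Regions rarely lay next to each other. Chained at up to 100 kb, 16 of the 200 formed 8 clusters of 2, and no cluster was larger. At up to 50 kb there were 5 clusters, and at up to 10 kb there were 3. Without N3ICD A or without N3ICD C no cluster was left, and without B there were 3. Except at FTCD and LSS, the 2 regions of a pair were found in different sets of libraries.

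A cluster spanned the guanylate cyclase locus, with 91475 bp between the GUCY1A1 and GUCY1B1 regions. OLFM2, an olfactomedin gene of smooth muscle, had a pair 7383 bp apart, at 4.41 in A and 4.26 in B, and at 6.17 in A and 8.75 in C. The pair at ASAH1, the acid ceramidase gene, lay 263 bp apart and had A and C peaks on one side and B and C peaks on the other. HEY1, for which no start was known, had a pair 43235 bp apart, 16335 and 59852 bp from the nearest end of the gene, at 3.78 in A and 7.32 in C, and at 5.81 in B and 17.1 in C. N3ICD C had a peak in both HEY1 regions and the highest value in each.

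The other pairs joined different genes. RPS6KA1 and ARID1A lay 73976 bp apart, FTCD and LSS 94133 bp, ZNF526 and ERF 32873 bp, and ZSWIM4 and NANOS3 3287 bp. FTCD, a folate enzyme gene, had folds of 5.73 in A and 5.51 in C. ERF, an ETS repressor gene, had 3.51 in B and 4.15 in C. The ZSWIM4 and NANOS3 peaks were all under a −log10 q of 1.3.

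Peaks outside the 200 regions also lay around them. Another N3ICD peak was found within 50 kb of 12%, 17% and 27.5% of the regions in A, B and C. GFP peaks were found there for 2.5%, 3.5% and 4.5%. Over all 12268 merged regions, a peak of another region lay this close in 11.9%, 12.2% and 14.7% with N3ICD and in 6.91%, 8.09% and 10.4% with GFP. Over the 7636 regions of 1 N3ICD library the shares were 10.6%, 14.0% and 16.5%, and 5.20%, 6.22% and 7.03%. The N3ICD libraries were thus above the GFP libraries in all 3 sets of regions, and the sets were not tested against each other. N3ICD libraries also had more peaks, 2226 to 3397 against 1219 to 1718 with GFP, and these shares are not adjusted for peak number. The part of peak number in them was not tested. These values were chosen after the data were seen and carry no test.

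Summits of the same region differed by a median of 90.5 bp over 246 pairs of peaks, with quartiles of 34.3 and 195 bp. The median was 89 bp for A with B, 79 bp for A with C and 92 bp for B with C. Of the 246 pairs, 90 had summits within 50 bp and 24 were over 300 bp apart. The widest was 992 bp, between B and C. The B summit was at the higher coordinate than that of A in 28 pairs and at the lower in 23, with a median of 10.5 bp. The C summit was higher than that of A in 34 pairs and lower in 31, and higher than that of B in 61 and lower in 68.

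Summit distance also differed with peak strength. Where every peak of the region reached a −log10 q of 1.3, the median distance was 45.5 bp over 52 pairs, against 97.5 bp over 194 pairs in the other regions. At known starts it was 79 bp over 119 pairs, and in all other regions, those on chromosome 8 included, 98 bp over 127. Pairs of an N3ICD and a GFP peak in other merged regions were 89 bp apart (n = 63), and pairs of GFP peaks 74.5 bp (n = 40). The overlap that the rule needs limits these distances, and pairs share libraries, so no test was made.

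Across the 24 regions found in all 3 libraries, the 3 summits spanned a median of 145 bp, from 7 to 645 bp. In 6 of the 24 all summits lay within 60 bp.

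**Figure D5:**
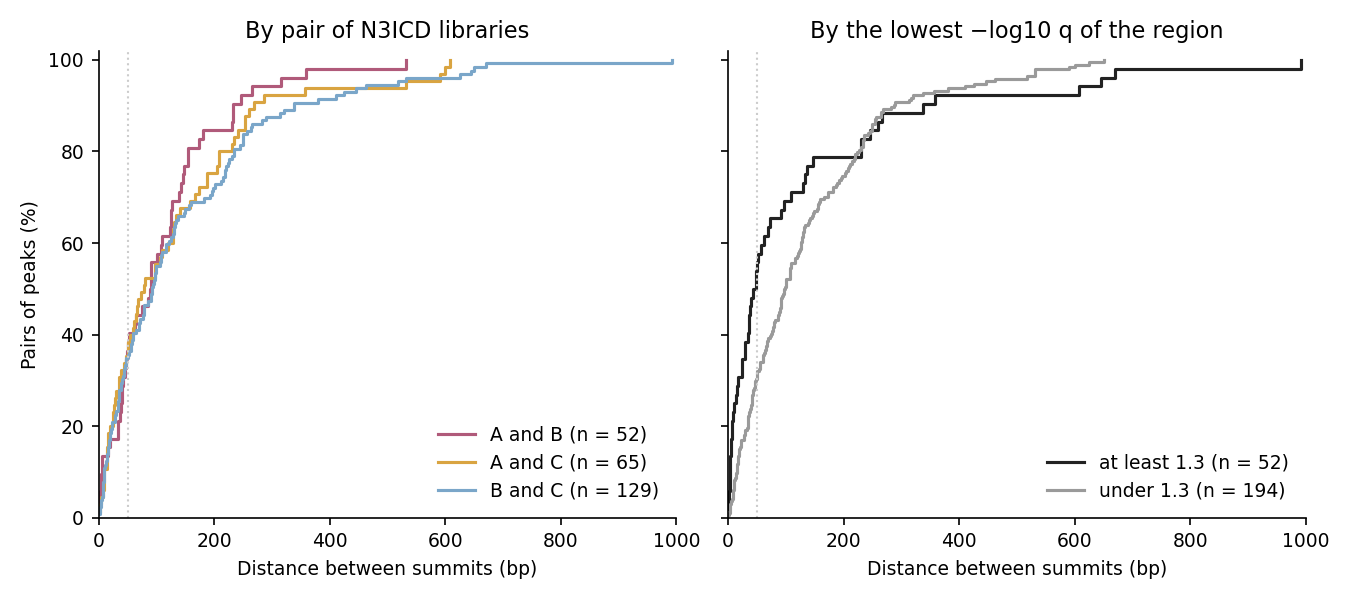
Cumulative percentage of pairs of peaks by the distance between their summits in bp, for the 3 pairs of N3ICD libraries (left) and by the lowest −log10 q of the region (right); a dotted line marks 50 bp. The 3 library pairs run together, with medians of 79 to 92 bp, and the 52 pairs in regions at or above 1.3 have a median of 45.5 bp against 97.5 bp for the other 194.

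Promoter letters were then counted for the 123 genes with a known start within 1 kb of a region, in 300 bases from 250 before to 50 after the start, on both strands. The RBPJ core TGGGAA was in 22.8% of these (28; 95% Wilson interval 16.2% to 30.9%), in 24.1% of 1334 promoters at other N3ICD peaks and in 22.7% of all 15842 promoters. Both of these shares lie inside the interval for N3ICD-only regions. The longer form, CGTGGGAA or TGTGGGAA, was in 7.32% (9; 3.90% to 13.3%), against 2.40% (1.70% to 3.37%) at other N3ICD peaks and 2.47% (2.24% to 2.73%) of all promoters. It contains the core, so the counts overlap, and the 9 genes hold 1 shared site and 1 repeat, as shown above. The difference between promoter sets was not tested, since genes are not replicates.

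Both counts, like those of most other motifs counted, were higher where peaks were stronger, a split made after the values were seen. Of 67 promoters at regions with a −log10 q of at least 1.3 in some library, 31.3% (21.5% to 43.2%) held the core and 11.9% (8; 6.18% to 21.8%) the longer form. Of the 56 others, 12.5% (6.19% to 23.6%) held the core and 1.79% (1; 0.316% to 9.45%) the longer form. Other motifs also differed between these 2 sets. TATAAA was in 11.9% and 1.79%, CACGTG in 16.4% and 5.36%, and GCATGCGC in 8.96% and 3.57%. CCGGAA was in 35.8% and 25%, CCAAT in 31.3% and 26.8%, and GGGCGG in 79.1% and 73.2%. ATGGCGG, at 10.4% and 10.7%, and TGACGTCA, at 1.49% and 3.57%, went the other way. Median GC content was 66.7% and 68.5% in the 2 sets.

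The 8 other motifs counted are given in the same order, for N3ICD-only regions, other N3ICD peaks and all promoters. The GC box GGGCGG was in 76.4%, 74.4% and 58.5%. The ETS core CCGGAA was in 30.9%, 31.6% and 22.9%, and CCAAT in 29.3%, 34.9% and 36.4%. TATAAA was in 7.32%, 4.87% and 9.63%, ATGGCGG in 10.6%, 11% and 7.63%, and the E-box CACGTG in 11.4%, 12.5% and 8.88%. TGACGTCA was in 2.44%, 3.82% and 2.59%, and GCATGCGC in 6.50%, 5.40% and 4.26%. Median GC content was 67.7%, 67% and 62.7% in the same 3 sets, and a ratio of observed to expected CpG over 0.6 was found in 95.1%, 90.5% and 65.7%. Both sets at N3ICD peaks had a higher GC content and more CpG than all promoters.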

How the data were processed

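Deposited peak lists of 6 Notch3 ChIP libraries were used, and the inputs were left out. The submitters' processing notes name MACS3 3.0.0a7, deepTools 3.5.1, Bowtie2 2.2.1, bedtools 2.30.0 and SAMtools 1.11, with hg38. Options and the control used for each call are not given in the sources used here. Peaks were called in each library separately, per the file headers. Each peak has a deposited fold ratio, −log10 p and q values (lowest −log10 p 3.30) and, in the authors' series table, a summit pileup signal. Chromatin was digested with an enzyme, per the labels' protocols, which can favour open chromatin.

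Positions are 1-based. A region's summit is the median over its libraries, and its gene is the protein-coding gene with the nearest end within 100 kb, from RefSeq GRCh38.p14, the same assembly as hg38. Strand and starts came from the RefSeq promoter table. Exons were not used. The background pileup is the lowest repeated (pileup + 1) / fold − 1 of a library. Tests were exact permutations over libraries, with Wilson intervals at 95% that cover counting error only. Members, gene lists and tests were chosen with earlier results of these data known. The text names genes in all 3 N3ICD libraries, list genes, cluster genes and the top genes of each class by mean fold percentile; other names were chosen after their values were seen, as were the classes and printed promoters. The merging step and the motif search were tested on simulated data, and the held-out step was run on them without an expected value to check against. Letters A, B and C in both groups may mark the 3 differentiations, but the labels do not say so. Alternatives covered overlap, q, equal peak numbers, left-out libraries, distances, assignment and motif. Software was SciPy 1.17.1, pandas 2.3.3, numpy 2.4.6 and matplotlib 3.10.9 under Python 3.11.15. A few regions are not reported here.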

Additional observations from a re-analysis of the deposited data

How the results depend on the processing

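The held-out difference and the difference at gene starts kept their sign under the 7 and 13 alternatives run for them; the other values are counts, a distance and a share, which have no direction. Among peaks with a −log10 q of at least 1.3 there were 40 N3ICD-only regions, 38 nearest genes and 0 clusters, with a median summit distance of 48 bp and the core TGGGAA in 31.6% of promoters. With the 1219 most significant peaks of each library these were 98 regions, 92 genes, 4 clusters, 75.5 bp and 34%. Requiring all 3 N3ICD libraries left 24 regions. The summit distance was 76 bp with an overlap of 50% of the shorter peak and 68.5 bp when summits within 250 bp were joined. Clusters numbered 3 at 10 kb and 5 at 50 kb, and the longer RBPJ form was in 7.32% of promoters. Leaving out 1 library at a time gave 52 to 201 regions, 49 to 189 genes, 0 to 8 clusters, summit distances of 79 to 92 bp, the core in 22.2% to 29.0% of promoters and 4 to 9 Notch target genes. Without an N3ICD library a region needs both of the others, so counts fall by construction: Notch target genes were 4 without A or without C, and clusters 0 without A or C and 3 without B. The held-out difference ranged from 26.9 to 46.9 percentage points and had no value without an N3ICD library, since 2 are needed to choose and 1 to test. With the replicate block it was 33.1 points (exact p = 0.25). The difference at gene starts ranged from 12.3 to 38.1 points over its 13 alternatives, lowest among peaks with a −log10 q of at least 1.3. Whether depth limits which weak sites recur was not tested.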
